A study of Homo sapiens with 27 samples.

Results

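A set of 10 genes for transcription factors of the myeloid lineage were followed in HL-60 cells, a line of human promyelocytic leukaemia that has long been in use. They were chosen by gene name, as SPI1, CEBPA, CEBPB, CEBPE, GATA2, LMO2, RUNX1, MYB, GFI1 and RARA, and all 10 of these names were found among the 58233 genes of every gene table. Nascent RNA, meaning newly made transcripts captured after labelling, was sequenced from cells given 100 µM DRB, 0.8 µM actinomycin D (ActD) or the vehicle DMSO, and from untreated cells, which also gave a total RNA library. H2A.Z, a variant of histone H2A, and its acetylated form, acH2A.Z, were mapped by chromatin immunoprecipitation (ChIP) in DRB, ActD and DMSO cells and in cells labelled siMyc and siNTC, with siNTC as the control of siMyc. RNA bound by H2A.Z, by acH2A.Z or by the acetyltransferase Tip60 (KAT5) was recovered by RNA immunoprecipitation (RIP) from untreated cells. Each of the 27 groups was 1 library, so no p-value could be computed, and how long cells were treated is not given in the sources used here. No RNA library of siMyc or siNTC cells was analysed here, so the level of MYC could not be checked in them.

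These factors bind DNA in blood progenitors and decide which lineage programme is used. PU.1, encoded by SPI1, and the C/EBP factors switch on genes of granulocytes and monocytes, RUNX1 and MYB are needed for progenitors to form and divide, and GATA2 and LMO2 act in stem and early progenitor cells. GFI1 is a repressor that favours granulocytes over monocytes, and RARA is a receptor for retinoic acid. DRB inhibits the kinase that releases RNA polymerase II into elongation, whereas ActD intercalates into DNA and blocks the polymerase. H2A.Z sits at gene starts and enhancers, and its acetylated form is a mark of active ones.

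The set of RefSeq starts used here covered 8 of the 10 genes. It held no entry for SPI1 and LMO2, although RefSeq positions of both genes were available. The listed start of RUNX1 lies inside the gene, which spans chr21:34787801-35049302, so any start at its upper end is not covered. CEBPA, CEBPE, RUNX1 and MYB had a single listed start, CEBPB and GATA2 had 2 each, and GFI1 and RARA had 3 each. The 250 bases before 5 of these starts are shown (RefSeq, GRCh38.p14, 5′ to 3′), because peaks at these starts differed between the lists described below. Capitals mark matches to GAGGAA, the core bound by PU.1, and to CAGCTG, an E-box bound by TAL1 partners, on either strand.
CEBPA, chr19:33302535-33302784, minus strand: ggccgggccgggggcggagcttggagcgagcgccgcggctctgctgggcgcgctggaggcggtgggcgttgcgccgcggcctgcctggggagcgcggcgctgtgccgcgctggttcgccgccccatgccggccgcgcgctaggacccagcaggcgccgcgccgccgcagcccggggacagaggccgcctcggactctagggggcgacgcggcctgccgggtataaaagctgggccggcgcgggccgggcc
CEBPE, chr14:23119256-23119505, minus strand: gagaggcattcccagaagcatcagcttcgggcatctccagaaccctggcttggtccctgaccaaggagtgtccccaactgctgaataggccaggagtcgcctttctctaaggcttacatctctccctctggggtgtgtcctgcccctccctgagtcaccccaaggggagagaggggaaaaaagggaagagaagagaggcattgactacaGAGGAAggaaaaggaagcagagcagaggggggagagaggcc
GATA2 second start, chr3:128488531-128488780, minus strand: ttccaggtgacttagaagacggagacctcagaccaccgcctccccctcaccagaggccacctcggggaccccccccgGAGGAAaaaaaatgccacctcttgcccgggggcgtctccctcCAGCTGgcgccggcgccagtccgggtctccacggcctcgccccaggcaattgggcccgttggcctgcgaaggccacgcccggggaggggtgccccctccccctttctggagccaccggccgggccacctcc
RUNX1, chr21:34888700-34888949, minus strand: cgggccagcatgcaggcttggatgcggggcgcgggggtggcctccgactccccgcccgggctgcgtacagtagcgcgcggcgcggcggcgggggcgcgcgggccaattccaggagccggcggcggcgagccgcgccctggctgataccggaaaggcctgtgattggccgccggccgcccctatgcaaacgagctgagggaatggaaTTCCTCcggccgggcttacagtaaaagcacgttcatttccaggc
MYB, chr6:135181058-135181307, plus strand: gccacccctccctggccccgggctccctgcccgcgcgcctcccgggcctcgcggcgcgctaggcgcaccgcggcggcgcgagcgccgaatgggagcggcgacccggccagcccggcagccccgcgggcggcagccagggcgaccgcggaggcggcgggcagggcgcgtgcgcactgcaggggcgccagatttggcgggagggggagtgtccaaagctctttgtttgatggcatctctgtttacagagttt

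GAGGAA stood in 4 of the 14 windows of these 8 genes, those of CEBPE, RUNX1, the second start of GATA2 and the third of GFI1, against 23.7% of all 22199 RefSeq windows. CAGCTG was found in the second window of GATA2 and in 13.7% of all windows. The second window of GFI1 held a match to TTGCNNAA, a C/EBP motif, 142 bases before the start and a match to TGTGGT, the RUNX core, 47 bases before it, and these motifs stood in 7.50% and 9.36% of all windows. Neither CACGTG, the E-box bound by MYC (7.37% of all windows), nor AGATAA, bound by GATA factors (7.09%), was in any of the 14. The motifs do not overlap in these windows, all were searched on both strands, and a match is a description of letters only. The windows of CEBPA and of MYB were 81.2% and 75.6% G and C, against 57.2% for CEBPE.

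Levels are given in CPM, the expected counts per 1000000 counts of all genes other than the mitochondrially encoded MT- genes, which took 66.5% of counts under DRB, 56.9% under ActD and 45.9% under DMSO but 0.560% and 0.649% of the untreated nascent and total libraries. Without them the libraries held 4807213 counts under DRB, 5435877 under ActD, 7799808 under DMSO, 25026691 for nascent RNA of untreated cells and 12597023 for total RNA, so that 3 counts corresponded to 0.624, 0.552, 0.385, 0.120 and 0.238 CPM. Of 6 myeloid markers 5 were above 0 in every library, with MPO and PRTN3 the most abundant, whereas ELANE was listed at 0 in all but the untreated nascent library. In the 3 input DNA libraries the 10 genes held 181, 140 and 149 counts together under DRB, ActD and DMSO, too few for use gene by gene. The myeloid markers summed to 933 to 2075 CPM, while 6 erythroid markers summed to at most 7.54 CPM, 7 lymphoid markers to at most 19.6 CPM and 8 epithelial and fibroblast markers to at most 3.64 CPM. Ratios are log2 ratios after adding 1 CPM, and "higher" and "lower" are used of ratios of at least 2-fold. Square brackets hold the exact 95% binomial interval of the bare ratio of counts, with nothing added, so a ratio can fall outside its bracket, and only counting error is covered. Each ratio is relative to the rest of the RNA in its libraries, and in such bulk libraries fewer expressing cells and less RNA per cell cannot be told apart.

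MYB was the most abundant of the 10 genes. It had 617 CPM under DRB and 504 CPM under ActD, against 1100.0 CPM under DMSO, and 252 CPM in untreated nascent RNA against 360.3 CPM in total RNA. Per kilobase of effective length MYB ranked first of the 10 in all libraries except ActD, where SPI1 stood at 488 CPM per kb and MYB at 296. SPI1 was second under DRB and DMSO, at 124 and 177 CPM per kb. The effective length given for SPI1 was 470 bases under ActD, 590.0 under DRB and 875 under DMSO, but 1119 and 1095 bases in untreated nascent and total RNA, so its place in this order moves with the transcripts assigned to it. CEBPB and RARA, the retinoic acid receptor gene, were at the low end, with 5.45 and 12.2 CPM per kb in total RNA against 126 for MYB. The effective lengths of RARA, GATA2 and MYB differed between libraries as well. That of RARA was 540 bases under ActD and 593 under DMSO, but 1843 under DRB and 2305 in untreated nascent RNA. Its level per kb was 26.2 CPM under DMSO and 2.15 CPM in untreated nascent RNA.

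**Figure D1:**
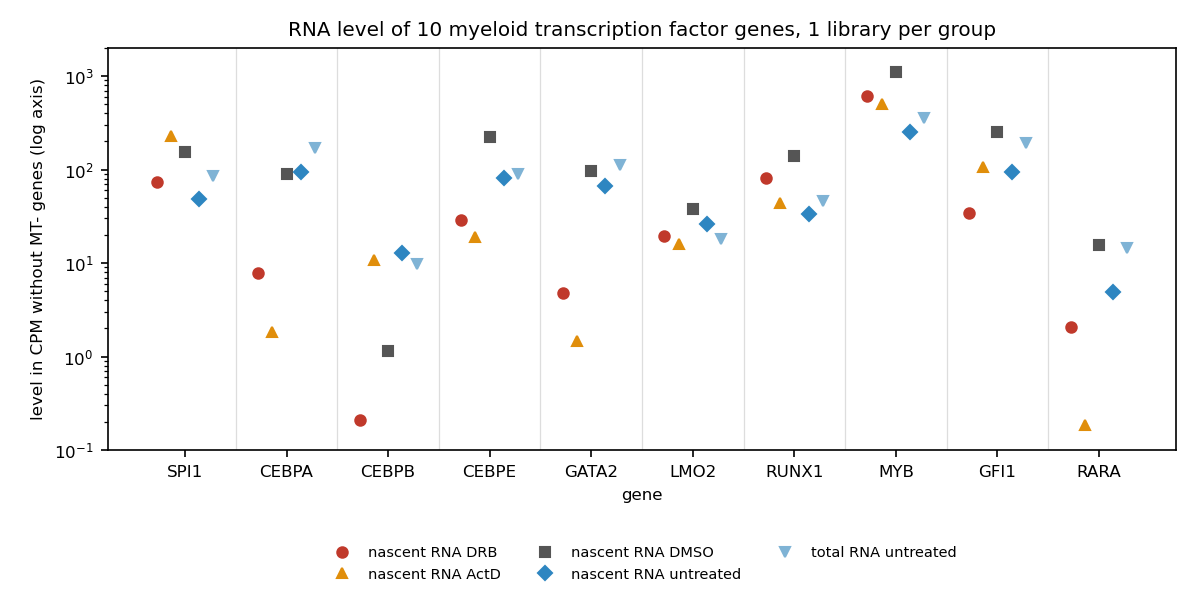
Level of each gene (CPM without MT- genes, log axis) in the 5 RNA libraries, 1 point per library. GATA2, CEBPA and RARA lie lowest under ActD, CEBPB is lowest under DRB at 1 count, and MYB is the highest gene in every library.

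Nascent RNA of SPI1, the gene of PU.1, which sets the myeloid programme by opening enhancers, differed between the inhibitors. SPI1 had 73.4 CPM under DRB and 229 CPM under ActD, against 155 CPM under DMSO. The DRB level was lower than that of DMSO, at -1.07 [-1.25, -0.91], and the ActD level was above it by less than 2-fold, at 0.56 [0.45, 0.68]. ActD exceeded DRB by 1.63 [1.47, 1.82]. In untreated cells SPI1 stood at 48.5 CPM in nascent and 85.4 CPM in total RNA.

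The C/EBP genes did not share 1 direction. CEBPA, the factor that starts granulocyte commitment, had 7.90 CPM under DRB and 1.84 CPM under ActD, against 88.8 CPM under DMSO, 93.7 CPM in untreated nascent RNA and 170.4 CPM in total RNA. Its ratios to DMSO were -3.33 [-4.00, -3.02] for DRB and -4.98 [-6.66, -4.71] for ActD, both from libraries with few counts (38 and 10, against 693 under DMSO). CEBPE, which acts late in granulocyte maturation, had 29.1 CPM under DRB and 18.9 CPM under ActD, against 223 CPM under DMSO. It was lower in both, at -2.89 [-3.19, -2.69] and -3.49 [-3.86, -3.27]. CEBPB, used in emergency granulopoiesis and in monocytes, had 0.208 CPM under DRB and 10.7 CPM under ActD, against 1.15 CPM under DMSO. It was the gene that was higher under ActD, at 2.44 [2.19, 4.41], on 58 counts against 9 under DMSO. With 1 count under DRB against 9 under DMSO its ratio of -0.83 [-7.93, 0.38] could not be told from 0 at this depth. The DMSO library was itself low for CEBPB, since untreated nascent RNA held 12.8 CPM and total RNA 9.76 CPM.

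Among the progenitor genes, GATA2 was furthest from DMSO of all 10 under both inhibitors. GATA2, the zinc finger factor of stem and progenitor cells, had 4.78 CPM under DRB and 1.47 CPM under ActD, against 97.6 CPM under DMSO, with 67.6 CPM in untreated nascent and 112.6 CPM in total RNA. The ratios were -4.09 [-5.02, -3.75] and -5.32 [-7.27, -5.06], and 3.04% of all tested genes lay lower in DRB and 0.484% in ActD. LMO2, a bridging protein that joins GATA and TAL1 factors, had 19.6 CPM under DRB and 16.2 CPM under ActD, against 37.4 CPM under DMSO. It stayed within 2-fold under DRB (-0.90 [-1.29, -0.60]) and was lower under ActD (-1.16 [-1.57, -0.86]). RUNX1, which forms a heterodimer with CBFB, had 81.3 CPM under DRB and 43.8 CPM under ActD, against 139.8 CPM under DMSO. The ratio was -0.77 [-0.95, -0.61] under DRB, within 2-fold, and -1.65 [-1.88, -1.47] under ActD. MYB, which keeps progenitors dividing, stood close to RUNX1 under DRB, with -0.83 [-0.89, -0.77], and was lower under ActD, at -1.13 [-1.19, -1.07], its counts of 2968, 2738 and 8580 giving the narrowest intervals of the 10.

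GFI1 and RARA completed the set. GFI1 had 34.3 CPM under DRB and 107 CPM under ActD, against 250.1 CPM under DMSO, with 93.5 CPM in untreated nascent and 192 CPM in total RNA. It was lower in both, at -2.83 [-3.10, -2.64] and -1.22 [-1.37, -1.10], and ActD exceeded DRB by 1.61 [1.38, 1.89]. RARA had 2.08 CPM under DRB and 0.184 CPM under ActD, against 15.5 CPM under DMSO. These were 10 counts and 1 count against 121, with ratios of -2.42 [-3.99, -1.97] and -3.80 [-11.71, -3.89].

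In all, 6 of the 10 genes were lower and 0 higher under DRB (CEBPA, CEBPE, GATA2, SPI1, GFI1 and RARA), where 42.0% of 14477 tested genes were lower and 14.3% higher. Under ActD 8 were lower and 1 higher, against 45.1% lower and 17.0% higher over all tested genes. The median of the 10 was -1.75 under DRB and -1.44 under ActD, whereas the median tested gene stood at -0.60 and -0.71, or at -0.55 and -0.69 with genes at 0 in 1 library set to the level of 3 counts. Both comparisons use the same DMSO library. With MT- genes kept in the total 9 of the 10 were lower under DRB, and relative to the median gene 5 were, SPI1 then standing at -0.47. Relative to the median gene 4 of the 10 were lower and 2 higher under ActD, the second being SPI1 at 1.28. Of all genes called in either direction, the higher ones made up 25.4% under DRB and 27.4% under ActD, but 41.8% and 43.3% relative to the median gene and 14.6% and 22.5% with MT- genes kept in the total.

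**Figure D2:**
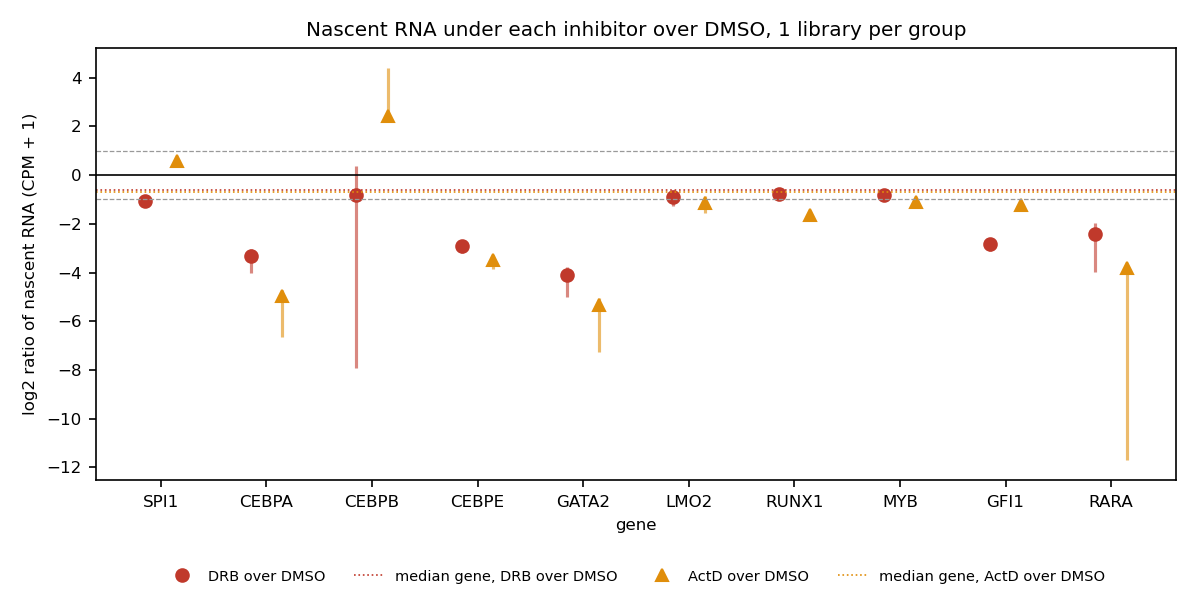
Log2 ratio of nascent RNA under DRB and ActD over DMSO (CPM + 1), with vertical lines for the 95% interval of the ratio of counts, dotted lines for the median tested gene and dashed lines at 2-fold. CEBPB under ActD, at 2.44, is the point above the upper dashed line, and GATA2 under ActD, at -5.32, is the lowest point.

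Set directly against DRB, ActD was lower for CEBPA (-1.65 [-3.27, -1.07]), GATA2 (-1.23 [-3.07, -0.49]) and RARA (-1.38 [-8.94, -0.69]) and higher for CEBPB (3.27 [3.15, 11.01]), SPI1 and GFI1. Over all tested genes 30.0% were lower and 27.2% higher. The first 3 rest on 10, 8 and 1 counts under ActD, and with 5 CPM added in place of 1 none of them reached 2-fold. CEBPE (-0.59), RUNX1 (-0.88), MYB (-0.29) and LMO2 (-0.26) were within 2-fold, and with MT- genes in the total MYB turned to 0.07 and LMO2 to 0.08.

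Gene length differed widely among the 10, from 1.95 kb for CEBPE to 261.5 kb for RUNX1. Under DRB 55.4% of tested protein-coding genes spanning 5 to 20 kb and 30.0% of those over 50 kb were lower than under DMSO, and under ActD the shares were 44.6% and 52.0%. GATA2 and GFI1, spanning 13.8 and 13.9 kb and thus in the first of these ranges, were lower under both inhibitors, while RUNX1, in the second, was lower under ActD and within 2-fold under DRB. For genes under 5 kb the shares were 49.6% and 36.2%, a range that holds CEBPA, CEBPB and CEBPE. For genes of 20 to 50 kb they were 48.7% and 49.0%, and the 4 members there did not share 1 pattern: MYB and LMO2 were within 2-fold under DRB and lower under ActD, SPI1 was lower under DRB and within 2-fold under ActD, and RARA was lower under both.

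The vehicle and untreated nascent libraries were also set side by side. Their MT- shares of 45.9% and 0.560% differ widely, and the part of this in the ratios was not tested. MYB stood at 1100.0 CPM with DMSO against 252 CPM untreated (2.12 [2.08, 2.17]), and RUNX1 at 139.8 CPM against 33.2 CPM (2.04 [1.94, 2.20]). SPI1 (1.66), RARA (1.47), CEBPE (1.45) and GFI1 (1.41) were higher with DMSO too, so 6 of the 10 were higher, where 42.8% of all tested genes were. CEBPB was lower, at 1.15 CPM against 12.8 CPM (-2.68 [-4.61, -2.53]), as were 13.9% of tested genes, and CEBPA at 88.8 CPM against 93.7 CPM was within 2-fold (-0.08 [-0.20, 0.05]). GATA2 (0.52) and LMO2 (0.49) lay within 2-fold, with signs that turned relative to the median gene (-0.22 and -0.25), with MT- genes in the total (-0.34 and -0.36) and without MT-, ribosomal RNA and RNA polymerase III genes (-0.56 and -0.58). The median gene was at 0.74 here, and relative to it 2 of the 10 were higher. Of all called genes, 75.5% were higher on this scale, 47.6% relative to the median gene, 48.7% with MT- genes in the total and 40.2% without the 3 classes.

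Untreated nascent RNA was close to total RNA for most of the set. GFI1 had 93.5 CPM in nascent against 192 CPM in total RNA (-1.03 [-1.12, -0.96]), and RARA had 4.95 CPM against 14.6 CPM (-1.39 [-1.90, -1.22]). These were the 2 lower genes, beside 13.0% of all tested genes, and 0 were higher, beside 9.26%. LMO2 (0.51 [0.32, 0.76]) and CEBPB (0.36 [0.08, 0.70]) leaned to the nascent side and CEBPA (-0.86), SPI1 (-0.80) and GATA2 (-0.73) to the total side, all within 2-fold. MYB (-0.51), RUNX1 (-0.47) and CEBPE (-0.15) were nearer, CEBPE turning to 0.08 relative to the median gene, which lay at -0.23. Higher genes were 41.6% of all called genes here, and 59.4% relative to the median gene.

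Partners and relatives of the factors were read from a list of 32 genes, of which 26 passed the filter of a mean of 1 CPM and 20 counts over the 5 RNA libraries. Under DRB 10 of these were lower and 2 higher than under DMSO, beside 42.0% and 14.3% of all tested genes. Under ActD 14 were lower and 1 higher, beside 45.1% and 17.0%. The medians of the 26 were -0.18 and -1.56 (with 0 counts at the bound, -0.10 and -1.56). LMO4, a relative of LMO2, had 1.66 CPM under DRB against 22.8 CPM under DMSO (-3.16), and LYL1, a TAL1 relative that pairs with LMO2, had 4.78 CPM against 46.2 CPM (-3.03). The ETS repressor gene ETV6 and the RUNX1 relative RUNX2 were the higher pair, at 408 CPM under DRB against 115 CPM (1.82) and 149 CPM against 66.2 CPM (1.16). Under ActD RUNX3 was lowest with 0.184 CPM against 29.7 CPM under DMSO (-4.70), followed by LYL1 with 1.84 CPM (-4.05). SPIB, the closest relative of SPI1, had 10.5 CPM under ActD and was listed at 0 under DMSO and DRB.

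Of 17 other transcription factor genes of blood progenitors 10 passed. Under DRB 4 were lower and 1 higher, with a median of -0.46, beside 42.0% and 14.3% of all tested genes. Under ActD 7 were lower and 2 higher, with a median of -1.64, beside 45.1% and 17.0%. NFE2, a megakaryocyte and erythroid factor, had 0.208 CPM under DRB against 27.1 CPM under DMSO (-4.54), and the repressor gene BCL6 was listed at 0 under both inhibitors against 10.4 CPM under DMSO. BACH2, a repressor best known in lymphocytes, was higher in both, at 36.6 CPM under DRB and 73.0 CPM under ActD against 11.7 CPM under DMSO (1.57 and 2.55). STAT5A, a signal transducer of cytokine receptors, had 150 CPM under ActD against 35.6 CPM (2.04).

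Among 21 myeloid genes known to be bound by the factors 15 passed. Under DRB 5 were lower and 1 higher (median -0.44), beside 42.0% and 14.3% of all tested genes. Under ActD 3 were lower and 1 higher (median 0.10, or 0.00 with 0 counts at the bound), beside 45.1% and 17.0%. CD33, a myeloid surface receptor, had 10.4 CPM under DRB and 2.76 CPM under ActD against 71.0 CPM under DMSO (-2.66 and -4.26). CSF2RA, a chain of the GM-CSF receptor, had 0.208 CPM under DRB and was listed at 0 under ActD, against 6.28 CPM under DMSO. AZU1, the azurocidin gene, was higher under DRB (34.1 against 15.5 CPM, 1.09) and CFD, complement factor D, under ActD (153 against 29.9 CPM, 2.32).

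Peaks were taken from the authors' lists, which were called per library and hold 29432 (DRB), 31240 (ActD), 17007 (DMSO), 14528 (siMyc) and 17353 (siNTC) acH2A.Z peaks. Tags are the deposited normalized tag counts, whose scale is not given. The lowest tag count was 11.2 in the DRB list, 4.06 in the ActD list, 17.1 in the DMSO list, 6.83 in the siMyc list and 4.57 in the siNTC list, so a gene without a peak can still have carried signal. The median peak held 87.7 tags under DRB and 24.6 under ActD against 161 under DMSO, so tags of these lists are given side by side and are not a measured change. Of the 10 genes, 9 had an acH2A.Z peak over the gene or within 1 kb in each of the DRB, ActD and DMSO lists, against 66.8%, 57.8% and 57.1% of 20037 protein-coding genes, and 5 had one in siMyc against 9 in siNTC, beside 38.1% and 60.2% of genes. All 10 genes passed the RNA filter, whereas the shares for ChIP lists, here and below, include genes that did not. Shares of expressed genes alone are not given for ChIP, so the 10 are set against an unlike group.

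**Figure D3:**
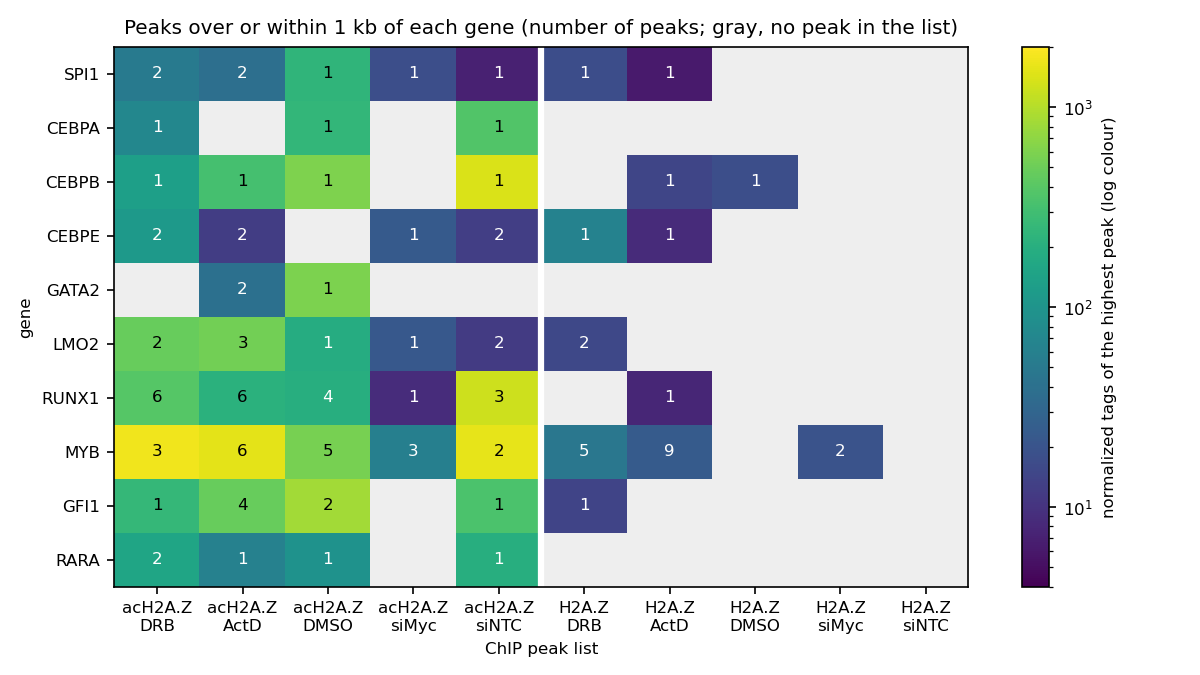
Normalized tags of the highest peak over each gene or within 1 kb (log colour) in the 5 acH2A.Z lists on the left and the 5 H2A.Z lists on the right, with the number of peaks in each cell and gray where the list holds none. MYB has the brightest cells under DRB (1729 tags) and siNTC (1600.0 tags), and the H2A.Z columns of siMyc and siNTC are gray except for MYB in siMyc.

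GATA2 and CEBPE exchanged places between DRB and DMSO. GATA2 had no acH2A.Z peak under DRB, against a peak of 584 tags over 3.59 kb under DMSO that covered the second start, and 2 peaks of 40.0 and 6.64 tags under ActD. Of 11446 genes with a peak under DMSO, 134 or 1.17% had none under DRB. Its nascent RNA stood at 4.78 CPM under DRB and 1.47 CPM under ActD against 97.6 CPM under DMSO. The outermost GATA2 start had no acH2A.Z peak in its promoter window in any list, and neither siMyc nor siNTC had a GATA2 peak at all. CEBPE, in contrast, had 2 peaks under DRB, of 114 and 32.5 tags, and 2 under ActD, of 12.4 and 7.20 tags, and none under DMSO, whose lowest peak of 17.1 tags lies above both of the ActD values. A gain of this kind was seen in 24.2% of the genes without a DMSO peak for DRB and in 13.9% for ActD.

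CEBPA carried a single peak just before its start, from -2092 to -105 bases under DRB with 70.7 tags, against -2307 to -131 bases with 243 tags under DMSO. Under ActD it had none, as had 9.19% of the genes with a DMSO peak. CEBPB had 134 tags under DRB over both of its starts, 317 tags under ActD from 1264 bases after the first start, and 596 tags under DMSO from 762 bases after it. SPI1 had its main peak at the upper end of the gene, which is its start side, with 52.2 tags under DRB and 39.0 under ActD against 231 under DMSO. By tags these SPI1 peaks lay in the top 61.6%, 41.2% and 42.5% of their lists. When the lists were limited to the 14528 peaks with the highest score, CEBPA had no peak under DRB and SPI1 had none under ActD. With the 14528 peaks of most tags, an order tried after seeing the data, CEBPA and SPI1 had none under DRB, SPI1 kept its ActD peak, and CEBPE had none under ActD.

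MYB and LMO2 had peaks of more tags in both inhibitor lists than in the DMSO list. The MYB peak over the start held 1729 tags and spanned 8.98 kb under DRB, 1548 tags and 6.79 kb under ActD, and 503 tags and 2.72 kb under DMSO, ranks 55, 577 and 4328 of their lists. A second DMSO peak, of 331 tags over 1.98 kb, lay within the span of both the DRB and the ActD peak. These tags and ranks thus set a wide peak against a part of the same stretch. Summed over the gene, MYB peaks held 2622 tags over 17.0 kb under DRB and 3541 tags over 19.4 kb under ActD, against 1560 tags over 11.3 kb under DMSO, or 154, 182 and 139 tags per kb covered. LMO2 had a peak of 477 tags under DRB and 532 under ActD at its upper end, against 185 under DMSO, over 6.06 and 6.23 against 2.09 kb. Per kb covered, summed over its counted peaks, LMO2 had fewer tags under DRB (74.5) and ActD (72.7) than under DMSO (88.5). A further DMSO peak of 46.4 tags, 1.79 kb beyond the gene, was not counted, although the DRB and ActD peaks of LMO2 span its position. RUNX1 summed to 976 tags in 6 peaks under DRB and 707 tags in 6 peaks under ActD, against 289 tags in 4 peaks under DMSO. Its tags per kb covered, at 54.3, 38.1 and 47.0, were closer together.

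GFI1 and RARA differed between the lists in which of their starts had a peak. The DMSO peak of GFI1 spanned 8.0 kb and all 3 starts with 840 tags. Under DRB the GFI1 peak held 248 tags over 2.84 kb and reached only the first start, and under ActD it held 472 tags over 9.05 kb and again covered all 3. By tags the GFI1 peaks lay in the top 24.4% under DRB and 10.3% under ActD, against 14.3% under DMSO. RARA had a peak at the second start, 9.06 kb inside the first, with 155 tags under DRB against 94.9 tags under DMSO, and none there under ActD, where a peak of 62.0 tags beyond the far end of the gene was the only peak.

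**Figure D4:**
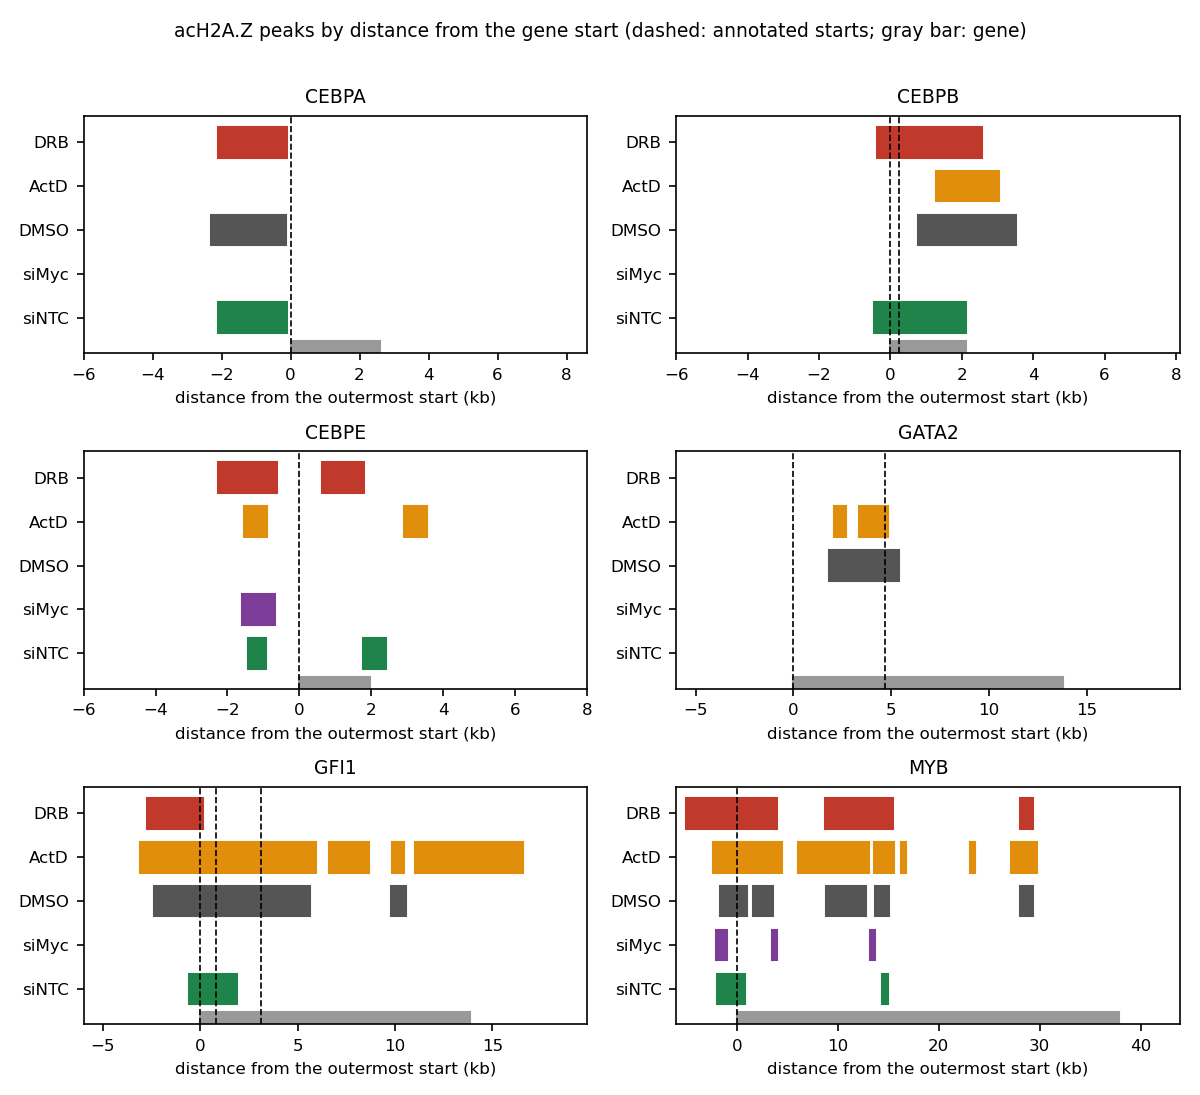
Position of acH2A.Z peaks of 6 genes in the DRB, ActD, DMSO, siMyc and siNTC lists by distance from the outermost start in kb, with dashed lines at listed starts and a gray bar for the gene. GATA2 has no bar for DRB, siMyc and siNTC, CEBPE has none for DMSO, and the siMyc row holds bars for CEBPE and MYB alone.

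The siMyc and siNTC lists differed at 4 of the 10 genes. CEBPA, CEBPB, GFI1 and RARA had no acH2A.Z peak in siMyc, against peaks of 373, 1409, 343 and 197 tags in siNTC. Among all genes with a siNTC peak 40.7% had none in siMyc, while 5.89% of those without had one in siMyc, and the same 4 genes lacked a peak when both lists were held to 14528 peaks, by score or by tags, SPI1 also losing its siNTC peak by tags. The CEBPB peak of siNTC ranked 155 of 17353. Most of these peaks lay between 4-fold and 8-fold over control: with at least 8-fold required, 1 of the 10 genes had a peak in siMyc (MYB) and 2 in siNTC (RUNX1 and CEBPE). RUNX1 had 8.84 tags in siMyc, at the upper end of the gene, against 3 peaks in siNTC, of which the one over the listed start held 1242 tags and ranked 243. MYB had 3 peaks of 59.1, 14.7 and 8.95 tags in siMyc against 2 peaks of 1600.0 and 15.5 tags in siNTC. SPI1, LMO2 and CEBPE went the other way, with 17.6, 22.2 and 23.2 tags in siMyc against highest peaks of 7.13, 11.9 and 12.7 tags in siNTC. In the siMyc list the control was scaled to the IP, in siNTC the IP to the control, and the median peak held 15.4 tags in siMyc against 101 in siNTC, so tags of the 2 lists are given side by side only.

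At the listed starts of the 8 genes that have one (1 kb to either side), acH2A.Z peaks were present for 7 under DRB, 5 under ActD and 7 under DMSO, and for 2 in siMyc against 7 in siNTC. Over all genes with a listed start the shares were 59.2%, 51.2%, 53.5%, 30.5% and 56.1%. The 5 under ActD were CEBPE, GATA2, RUNX1, MYB and GFI1, and the 2 in siMyc were CEBPE and MYB. RUNX1 was scored only at its listed start inside the gene. Its siMyc peak, chr21:35048041-35048541, lay near the upper end of the gene at 35049302, which was not counted as a start.

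Lists for H2A.Z itself, acetylated or not, were shorter than those for acH2A.Z. An H2A.Z peak was present for 5 of the 10 under DRB (CEBPE, SPI1, MYB, GFI1 and LMO2), 5 under ActD (CEBPB, CEBPE, SPI1, RUNX1 and MYB), 1 under DMSO (CEBPB), 1 in siMyc (MYB) and 0 in siNTC, beside 14.7%, 17.1%, 6.72%, 22.0% and 14.5% of all genes. These lists hold 4191, 17888, 1271, 11180 and 6956 peaks, and their lowest peaks held 11.2, 4.42, 17.1, 5.72 and 6.08 tags. The ActD peaks of CEBPB, CEBPE, SPI1 and RUNX1 and the DRB peaks of GFI1 and LMO2 had fewer tags than the lowest DMSO peak. A gene without an H2A.Z peak under DMSO can therefore still have carried such signal. Held to the 1271 peaks with the highest score, the DRB and ActD lists kept CEBPE and MYB. Held to the 1271 with most tags, the DRB list kept CEBPE and MYB, the ActD list CEBPB and MYB, and the siMyc list none of the 10. CEBPE had 62.7 tags under DRB in a peak from -1399 to 302 bases around the start, rank 96 of its list, and 8.56 tags under ActD. MYB had 5 peaks with up to 46.9 tags under DRB and 9 peaks with up to 24.0 tags under ActD, spread over the gene, against none under DMSO. CEBPB had 14.5 tags under ActD against 18.0 tags under DMSO, within the gene in both. Among all genes without an H2A.Z peak under DMSO, 11.4% had gained one under DRB and 15.4% under ActD, and of those with one 39.7% and 59.1% had none. For siMyc against siNTC the same shares were 15.1% and 37.6%. At listed starts the H2A.Z counts were 3 of 8 genes under DRB (CEBPE, MYB and GFI1), 1 under ActD (CEBPE) and 0 under DMSO, in siMyc and in siNTC, beside 13.1%, 5.62%, 6.65%, 14.7% and 9.08% of genes.

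RIP peaks give sites where RNA was recovered with each antibody, and the lists carry no strand. They hold 99234 (H2A.Z), 264469 (acH2A.Z) and 249628 (Tip60) peaks. Of the 10 genes, 8 had a peak over the gene or within 1 kb with H2A.Z, 7 with acH2A.Z and 6 with Tip60. The shares were 60.4%, 79.7% and 79.5% of all protein-coding genes, and 70.8%, 83.9% and 86.8% of 10680 expressed ones. CEBPA had none with any antibody. GATA2, SPI1, RUNX1, MYB, RARA and LMO2 had peaks with all 3, CEBPB and GFI1 with H2A.Z alone, and CEBPE with acH2A.Z alone. The CEBPE peak lay outside the gene, from -2203 to -924 bases before its start.

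RUNX1, the longest of the genes, had 13, 25 and 37 peaks, or 4.97, 9.56 and 14.1 per 100 kb, where the median expressed gene over 20 kb had 4.35, 7.76 and 10.6. RARA had 2, 8 and 13 peaks and SPI1 1, 4 and 5. The highest acH2A.Z RIP peak of the set was in SPI1, with 113 tags over 1.74 kb toward the lower end of the gene, in the top 0.511% of its list. The highest with H2A.Z was in GFI1, 6873 to 8423 bases inside the outermost start, with 84.1 tags and in the top 0.0312%. Of the RIP peaks of these genes 2 of 26 (7.69%), 2 of 41 (4.88%) and 7 of 67 (10.4%) overlapped an acH2A.Z ChIP peak of DMSO cells, against 3.41%, 4.02% and 3.65% of all RIP peaks near protein-coding genes. The 7 of Tip60 were assigned to MYB (3 peaks of 7.15, 5.54 and 4.40 tags), SPI1, GATA2, RARA and LMO2. Among them, the MYB peak of 7.15 tags lay before the start, and those of SPI1 and RARA lay outside the gene, within 1 kb. The ChIP peak that the RARA one overlapped was not itself assigned to RARA. Peaks of 1 gene share their source and are not independent.

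For each of the 10 genes the most similar expression profile was sought over the 5 RNA libraries, as the smallest distance between centred log2 levels among 8723 genes with a mean of at least 10 CPM. The closest pairs were SPI1 with ZUFSP (distance 0.0856), RUNX1 with ATP6V0A2 (0.143), MYB with SUPT6H (0.148) and RARA with ARF4 (0.168). ZUFSP had 13.5 CPM under DRB and 43.8 CPM under ActD against 29.7 CPM under DMSO, in the same order as SPI1. GATA2 was nearest to HGH1 (0.286) and CEBPA to P2RY2 (0.337), both of which were also near 0 under ActD. The nearest profile of CEBPB, that of CLCN7, lay furthest off, at 0.579.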

How the data were processed

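RNA, ChIP and RIP libraries of HL-60 cells were grouped by title and treatment label, and each of the 27 groups is 1 library. Per the submitters' processing notes the build was GRCh38, with STAR 2.5.2b, HOMER, cutadapt, Trim Galore and FastQC as tools. The deposited gene tables hold expected counts per gene, and per the file headers also effective lengths; the quantifier is not given in the sources used here. In the DRB, ActD and DMSO nascent tables these values stood packed in 1 field and were split. Peaks were called by the authors with HOMER, per the file headers, which give a tag count (a signal value named as normalized), a score, a p-value and a fold against the control for each peak, but not the control library. Deposited folds start at 4 and no deposited p-value exceeds 0.0001. In 10 of 13 lists the immunoprecipitation was scaled to the control, and in the other 3 (both siMyc lists and the H2A.Z list of siNTC) the reverse.

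Expected counts were converted to CPM without MT- genes, and log2 ratios were taken with 1 CPM added, for 14477 genes that averaged 1 CPM or more and reached 20 summed counts over the 5 RNA libraries. Counts were rounded for intervals. A difference of 2-fold was called, with no p-value, since a ratio compares 2 libraries. The computation was tested on simulated data. Gene positions and starts came from RefSeq GRCh38.p14, and all 10 genes matched by symbol. A peak was assigned to a gene when it overlapped it or lay within 1 kb. The 10 genes and the lists of partners, progenitor factors, bound genes and markers were chosen with earlier results of these data known. All 10 genes are named. From each list at most the 2 highest and 2 lowest genes that passed are named per comparison, and the 2 genes nearest in profile were sought for each of the 10, of which the nearer is printed for 7. The 6 IgG libraries were not analysed here. Alternatives tried were other scalings, added CPM of 0.1 and 5, no filter, a fold of 3, a peak fold of at least 8, other windows and overlaps, and lists of equal length by score and by tags. Python 3.11.15, numpy 2.4.6, pandas 2.3.3, scipy 1.17.1 and matplotlib 3.10.9 were used.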

Additional observations from a re-analysis of the deposited data

How the results depend on the processing

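No called difference of any of the 10 genes changed sign under the scalings, added CPM, filter or fold tried, but counts of genes moved. Relative to the median gene, ActD against DMSO gave 4 lower and 2 higher genes, DMSO against untreated nascent RNA 2 higher, and nascent against total RNA 1 lower. With MT- genes in the total, DRB against DMSO gave 9 lower genes, ActD against DRB gave 1 lower gene and DMSO against untreated 2 higher. Without MT-, ribosomal RNA and RNA polymerase III genes, DMSO against untreated gave 2 lower and 1 higher, and nascent against total RNA 1 lower. With 5 CPM added, ActD against DRB and nascent against total RNA gave 0 lower. At a fold of 3, ActD against DMSO gave 5 lower, ActD against DRB 1 lower, DMSO against untreated 3 higher and nascent against total RNA 0 lower. Over all tested genes, higher ones under DRB numbered 2073, against 1248 with MT- genes in the total and 3302 relative to the median gene, and under ActD 2464 against 3746 relative to the median gene. For DMSO against untreated, 6202 were higher and 2011 lower, against 3101 and 3263 with MT- genes, 3365 and 3697 relative to the median gene, 2806 and 4175 without the 3 classes, and 1097 lower with 5 CPM added. For nascent against total RNA, 1340 were higher and 1879 lower, against 1216 lower relative to the median gene, 2109 higher without the 3 classes, 2370 higher with 0.1 CPM added, and 358 higher and 696 lower with 5 CPM added.

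For peaks of at least 8-fold over control, genes with an acH2A.Z peak numbered 1 in siMyc and 2 in siNTC, and with an H2A.Z peak 2 under ActD and 0 in siMyc. At listed starts these were 3 under ActD, 0 in siMyc and 2 in siNTC for acH2A.Z, and 0 under ActD for H2A.Z. Counting overlap with the gene body alone, 3 genes had an H2A.Z peak under ActD. Within 250 bases of a start, 0 genes had an H2A.Z peak under ActD and 0 an acH2A.Z peak in siMyc. Within 5 kb, H2A.Z peaks were found for 2 genes in siMyc and 2 in siNTC, at starts for 4 under ActD and for 1 each under DMSO, in siMyc and in siNTC, and Tip60 RIP peaks for 10. With 0.5 of a peak required inside the start window, acH2A.Z counts were 3 under DRB, 2 under ActD, 2 under DMSO and 0 in siMyc. At equal list length, taking the highest scores, H2A.Z peaks were found for 2 genes under DRB and 2 under ActD, at starts for 1 under DRB, and acH2A.Z peaks at starts for 3 under ActD. The equal length planned within each RIP antibody could not be applied, as each has 1 list. Across the 3 RIP lists, an alternative chosen after seeing the data, it gave 4 genes with acH2A.Z. Taking the most tags instead, also chosen after seeing the data, H2A.Z peaks were found for 2 genes under DRB, 2 under ActD and 0 in siMyc, at starts for 1 under DRB and 0 under ActD, and acH2A.Z RIP peaks for 4. The cause of these moves was not tested, except that a stricter limit leaves fewer peaks. No paired analysis was possible because each group is 1 library, and for the same reason no library could be left out. Below 10 counts, as for CEBPB under DRB and DMSO and for GATA2 and RARA under ActD, depth limits every ratio.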

Other observations

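MYB, which encodes a factor that progenitors need to divide, had a strong acH2A.Z peak outside the gene, about 30 kb before its start. This peak was singled out after its values were seen. The stretch between HBS1L and MYB, in which it lies, is known to hold enhancers of MYB. The peak had 5190 tags under DRB, where it ranked 3 of 29432 peaks, and 3400.3 tags under ActD, where it ranked 46 of 31240, against 2065 tags and rank 301 of 17007 under DMSO. In these 3 lists it held more tags than any peak over MYB itself, the highest of which had 1729, 1548 and 565 tags. In siMyc it held 391 tags and ranked 2 of 14528, against 130.2 tags and rank 8028 of 17353 in siNTC, where the peak over the MYB start was the higher one at 1600.0 tags. Under DRB it spans chr6:135143888-135152006 (GRCh38), and inside that span H2A.Z peaks held 31.4 tags under DRB and 99.4 tags in siMyc. The scale of the tags is not given, so these are values within each list and not a measured change.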
